A study of Mus musculus with 4 samples.

Results

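Sinusoidal endothelial cells line the wide, leaky venous channels of the bone marrow, and here they were defined by 3 transcripts: Stab2 (the hyaluronan scavenger receptor stabilin-2), Clca3a1 (a chloride channel accessory protein found on sinusoids and lymphatics) and Adamts5 (a secreted proteoglycanase). A barcode was kept if it held 1000 or more unique molecular identifiers (UMIs, each standing for 1 captured RNA molecule) over 500 or more genes, with mitochondrial genes giving no more than 10% of them. It was endothelial when at least 3 of Cdh5, Pecam1, Egfl7, Emcn and Kdr were detected, and cells with at least 3 UMIs over at least 2 of the arterial genes Gja4, Gja5, Sema3g and Bmx were set aside. A remaining cell was sinusoidal when its Stab2, Clca3a1 and Adamts5 UMIs together exceeded its Flt1 and Aplnr UMIs. This gave 654 sinusoidal cells among 1697 endothelial cells and 16658 kept cells. They were compared with the 967 non-arterial endothelial cells in which Flt1 (a VEGF receptor) and Aplnr (the apelin receptor) had the larger sum. A further 66 cells were tied and 10 were arterial.

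The source was the limb marrow of 12-day-old (P12) C57BL/6 mice, from which cells were sorted as CD45- and Ter119-negative, DAPI-negative and Calcein-AM-positive, so that blood cells were depleted and live cells kept. Of the 4 libraries, 2 were from controls, whose own alleles are not given further, and 2 from mutants, 1 labelled Prx1-cre;Mettl3-fl/fl (mutant 1) and 1 labelled mutant (mutant 2). Prx1-cre acts in limb mesenchyme, not in endothelium. Mettl3 is the methyltransferase that writes the m6A mark on RNA, so the sinusoidal cells are not the cells in which the floxed gene is meant to be deleted. The protocol names 3 mice of each genotype without tying them to libraries, so the p-values below rest on the spread from library to library, which may be technical. Control 1 and mutant 1 were processed with 1 Cell Ranger version and control 2 and mutant 2 with another, per the submitters' notes, and each such couple is called a pair. UMIs of Xist and of the Y-linked Ddx3y were found together in the sinusoidal cells of all 4 libraries, whose totals ran from 47390414 to 116863081 UMIs.

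Marrow sinusoids are where blood cells pass between the marrow and the circulation. Their endothelium takes up macromolecules from the blood, carries adhesion molecules that hold or admit blood cells, and has a thin, discontinuous basement membrane. Capillary and arteriolar endothelium of the marrow is the counterpart with a closer barrier and with much of the endothelial Kitl, the ligand of the stem cell receptor Kit. Fgf23, which recurs below, encodes a circulating hormone that lowers phosphate reabsorption in the kidney and is best known from osteocytes. Ubd encodes the ubiquitin-like modifier FAT10, which is induced by inflammatory cytokines.

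Sinusoidal cells were very unequally spread: controls 1 and 2 gave 19 and 469 of them, mutants 1 and 2 gave 5 and 161. Their summed UMIs were 173804, 4258955, 33361 and 1813587 in that order, and the median cell held 6698, 8111, 6290 and 10160.0 UMIs. In mutant 1 a single UMI is therefore worth 29.98 CPM (UMIs of a gene per 1000000 UMIs of all genes), and a gene with 0 UMIs there may lie as high as 89.9 CPM, taking 3 counts as the limit that 0 allows. The same limits are 17.3 CPM in control 1, 0.704 CPM in control 2 and 1.65 CPM in mutant 2. Statements on mutants thus rest mainly on mutant 2, and those on controls mainly on control 2. Between 2 and 10 kept barcodes were shared by any pair of libraries, and no shared barcode was sinusoidal in both.

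Fgf23 and Ubd turned out to be high in sinusoidal cells against the other endothelial cells and lower in mutant than in control sinusoidal cells, so the 300 bases around their start sites (250 before, 50 after) are shown. They come from the RefSeq promoter table for GRCm38.p6, which matched both symbols, and read 5′ to 3′ on the plus strand of chr6:127072652-127072951 and chr17:37193642-37193941. Capitals mark GGAA or its reverse complement TTCC, the core letters bound by ETS factors, a family that includes the endothelial factors Erg and Fli1.
Fgf23 promoter: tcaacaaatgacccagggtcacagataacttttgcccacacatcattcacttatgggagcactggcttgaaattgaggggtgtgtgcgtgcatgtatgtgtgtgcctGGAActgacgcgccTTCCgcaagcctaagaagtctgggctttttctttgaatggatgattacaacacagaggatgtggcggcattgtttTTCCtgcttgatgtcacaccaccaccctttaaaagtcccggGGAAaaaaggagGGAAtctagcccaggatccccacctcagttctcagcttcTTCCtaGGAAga
Ubd promoter: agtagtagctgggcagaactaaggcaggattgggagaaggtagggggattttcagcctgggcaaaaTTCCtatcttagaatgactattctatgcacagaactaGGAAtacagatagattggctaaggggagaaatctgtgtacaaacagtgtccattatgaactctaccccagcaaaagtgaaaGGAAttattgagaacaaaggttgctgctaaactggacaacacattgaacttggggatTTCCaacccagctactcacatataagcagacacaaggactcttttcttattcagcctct
The window of Fgf23 held 7 such matches and that of Ubd 4, against a median of 3 over 32851 promoters, of which 96.0% held at least 1. Searched on both strands, like GGAA, were CACCC (a box bound by KLF factors), GATAA (bound by GATA factors), TTCNNNGAA (a STAT palindrome) and the interferon-stimulated response element. The Fgf23 window had 2, 1, 1 and 0 matches to these, and the Ubd window had none of them. Among all promoters 57.5%, 25.4%, 8.30% and 3.44% held at least 1 match. Matches to different motifs may overlap, and a match is a run of letters, not a measured binding site. Fgf23 (ENSMUSG00000000182) spans 127072902 to 127081408 of chromosome 6, plus strand, and Ubd (ENSMUSG00000035186) spans 37193892 to 37196095 of chromosome 17, plus strand, both in GENCODE M21 on mm10.

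The values that chose the cells are given as a description only. In the sinusoidal cells Stab2 was at 840.0, 1063, 809 and 669 CPM (control 1, control 2, mutant 1, mutant 2), Clca3a1 at 794, 761, 239.8 and 429.5 CPM, and Adamts5 at 1853, 2105, 2968 and 1968 CPM. Flt1 was still present at 708, 625, 989 and 669.9 CPM, and Aplnr at 201, 404, 1019 and 749 CPM. The gate therefore ranks 2 sums against each other and does not select cells that lack Flt1. Of the pan-endothelial genes that admitted the cells, Kdr (the main VEGF receptor) was at 656, 1060.3, 1079 and 975 CPM. Gja4 and Gja5 had no UMI in any sinusoidal cell.

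Most sinusoidal cells lay well inside the gate in controls. The sinusoidal sum led by 6 or more UMIs in 16 of 19 cells of control 1, 415 of 469 of control 2, 3 of 5 of mutant 1 and 119 of 161 of mutant 2. It led by exactly 1 UMI in 0, 11, 0 and 18 cells, and just outside the gate 2, 11, 3 and 50 cells were tied and 1, 5, 1 and 38 had Flt1 and Aplnr ahead by 1.

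**Figure D1:**
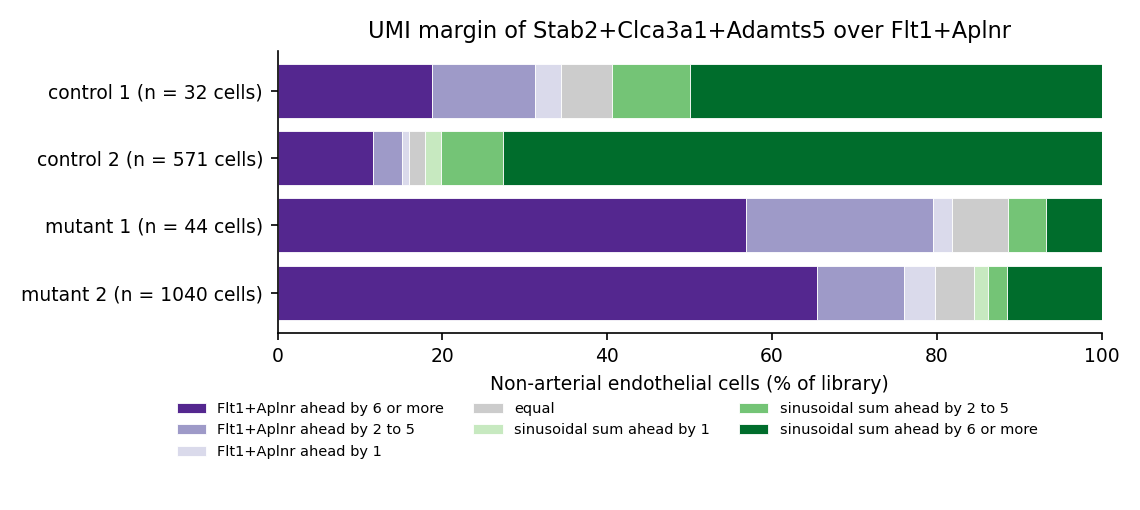
Bars give, for each library, the percent of non-arterial endothelial cells in each class of UMI margin between Stab2, Clca3a1 and Adamts5 together and Flt1 and Aplnr together. The widest class is a sinusoidal lead of 6 or more in the controls (50% and 72.7%) and a Flt1 and Aplnr lead of 6 or more in the mutants (56.8% and 65.5%).

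Sinusoidal cells were the majority of non-arterial endothelial cells in both control libraries and a minority in both mutant libraries. Control 1 had 19 of 32, a share of 59.4% with an exact Clopper-Pearson 95% interval of 40.6 to 76.3, and control 2 had 469 of 571, or 82.1% (78.7 to 85.2). Mutant 1 had 5 of 44, or 11.4% (3.79 to 24.6), and mutant 2 had 161 of 1040, or 15.5% (13.3 to 17.8). No control interval reached a mutant interval, though these intervals cover counting error only. The mutant mean minus the control mean was -57.3 percentage points, with -48.0 points in the pair of control 1 and mutant 1 and -66.7 points in the other pair. An exact two-sided permutation test over the 6 splits of 4 libraries gave p = 0.333, the smallest that 2 against 2 allows. The share was known from earlier results on these data, so its direction is no independent support.

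Depth moved the size of this difference and not its sign. With every cell thinned to 1000 UMIs before the 2 sums were compared, the shares were 53.1%, 68.1%, 18.2% and 15.9%, a difference of -43.6 points. With tied cells left out as well it was -48.1 points. Fewer sinusoidal cells and lower gate gene levels per cell cannot be told apart by this share. As a share of all kept cells, sinusoidal cells made up 0.327%, 12.9%, 0.190% and 3.51%, where control 1 lay between the mutants and no direction holds (exact permutation p = 0.667).

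**Figure D2:**
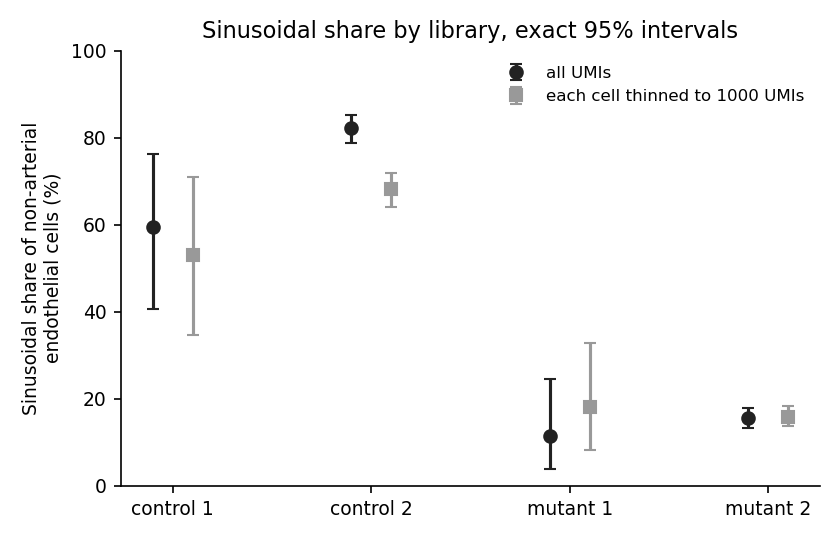
Points give the sinusoidal percent of non-arterial endothelial cells in each library, from all UMIs (circles) and with each cell thinned to 1000 UMIs (squares), and bars are exact 95% intervals. Both control libraries lie above 50% and both mutant libraries below 20% on either measure.

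Beyond the genes of the gate, sinusoidal cells differed from the Flt1/Aplnr-dominated cells of the same libraries in 591 of 7676 tested genes, 340 higher and 251 lower, or 7.7% of genes tested (4.43% higher, 3.27% lower). The test was edgeR's quasi-likelihood test on UMIs summed per library and compartment with library as a block, and an adjusted p is after Benjamini-Hochberg adjustment over all tested genes, with the 14 gate genes left out. The compartments were cut from the same profiles, so these p-values measure how repeatable a difference was over the 4 libraries, and not whether there are separate kinds of cell. Without control 2 the counts fell to 62 higher and 55 lower, and without mutant 2 to 101 and 100. Control 2 held 469 of the 654 sinusoidal cells and mutant 2 held 829 of the 967 others. The filter on low counts could be met by 1 compartment alone. A gene near 0 in the other compartment was then tested only because of the compartment where it was high. Fgf23 and Cav1 below are such genes, and the p-values of such genes are no independent support.

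Fabp4, a fatty acid carrier of capillary and sinusoidal endothelium, was a marker that the gate did not use. It was chosen with earlier results on these data known, so its direction is no independent support for the label. It stood at 14004, 12545, 8363 and 7064 CPM in sinusoidal cells and at 5864, 6302, 2316 and 2931 CPM in the Flt1/Aplnr-dominated cells. In each library the sinusoidal cells were the higher, with a log2 difference of 1.31 ± 0.29 (SE, 4 libraries, edgeR adjusted p = 0.00238; 0.062 without control 2). It was present in both compartments throughout and so marks a difference of degree.

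Of the list of sinusoidal identity genes, 17 of 20 tested members were higher, 0 lower, with a median log2 difference of 1.48 against -0.0018 over all tested genes. The list is not independent of earlier results on these data. Stab1 (stabilin-1, a scavenger receptor) was at 639, 795, 959 and 749 CPM against 372, 472, 183 and 484 CPM. Mrc1 (the mannose receptor) was at 742, 905, 1109 and 688 CPM against 109, 269.6, 47.5 and 297 CPM. Both were higher in the sinusoidal cells of every library, by 1.001 ± 0.24 and 2.11 ± 0.30 on the log2 scale (edgeR adjusted p = 0.00556 and 4.78e-06), although Stab1 gave an adjusted p of 0.078 without control 2. Also higher were Il6st (the shared receptor chain gp130, 1.69), Flt4 (VEGF receptor 3, 1.19), Gpm6a (1.78), Lrg1 (1.66), Il1r1 (the interleukin 1 receptor, 1.09) and Ehd3 (an endocytic recycling protein, 1.95). Plvap (the diaphragm protein of fenestrae) did not pass, at -0.30 ± 0.24 (adjusted p = 0.684), and Vwf (von Willebrand factor) was at 92.1, 31.0, 89.9 and 28.1 CPM against 31.0, 16.6, 54.8 and 20.998 CPM (adjusted p = 0.13).

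The smallest p outside the gate genes was that of Fgf23. Its level was 253 and 251 CPM in the sinusoidal cells of controls 1 and 2, 89.9 CPM in those of mutant 1 (3 UMIs) and 46.9 CPM in those of mutant 2. The Flt1/Aplnr-dominated cells held 0, 11.7, 0 and 2.04 CPM, so Fgf23 could pass the filter on low counts only through the sinusoidal sums. Sinusoidal cells were higher in all 4 libraries, with a log2 difference of 4.57 ± 0.27 (SE, edgeR adjusted p = 4e-13). Cells of the erythroid lineage from the same controls, used as a reference for free RNA in the droplets, held 0 and 0.0592 CPM. In control 2, 203 of the 469 sinusoidal cells held at least 1 Fgf23 UMI and the highest cell had 2.81% of them, so the signal was spread over many cells. In control 1 it was spread over 12 of 19 cells, with 47.7% of the UMIs in 1 cell.

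Rgs4 (a regulator that shortens G protein signalling) followed with 167, 393, 59.95 and 189.7 CPM against 31.0, 47.9, 0 and 14.9 CPM (log2 difference 3.42 ± 0.22, edgeR adjusted p = 2.09e-12), higher in every library. Ubd was at 276, 293, 0 and 46.3 CPM against 31.0, 43.0, 0 and 1.93 CPM (3.46 ± 0.27, adjusted p = 1.12e-10). It was higher in 3 libraries and had no UMI in either compartment of mutant 1. The other genes with the smallest p were Cxadr (the coxsackie and adenovirus receptor of cell junctions, 3.45), Ston2 (an adaptor of clathrin endocytosis, 2.83), Afap1l2 (2.85), Cadm3 (an adhesion molecule, 2.77), Adgrg6 (an adhesion G protein-coupled receptor, 2.68), Tspan7 (a tetraspanin, 2.52), Serpinb6b (a serpin, 2.35), Slc16a9 (a monocarboxylate transporter family member, 2.32), Ugcg (glucosylceramide synthase, 2.26), Vstm4 (2.25) and Sema3a (a guidance cue, 2.10), each as a log2 difference.

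Genes for the uptake of lipid from the blood were higher in part: 5 of 14 tested members of the fatty acid list were higher and 0 lower. Lpl (lipoprotein lipase, which frees fatty acids from lipoproteins) was at 806, 275, 119.9 and 145 CPM against 62.1, 54.7, 3.65 and 36.2 CPM (log2 difference 2.37 ± 0.22, edgeR adjusted p = 1.61e-09). The others were Angptl4 (an inhibitor of lipoprotein lipase, 1.65), Pparg (the fat cell nuclear receptor, 1.47), Fabp4 and Cd36 (a fatty acid and scavenger receptor, 0.86). Cd36 was higher in 3 of 4 libraries and lost its call without control 2 or without mutant 2 (adjusted p = 0.12 and 0.53). Gpihbp1, which anchors lipoprotein lipase in capillaries, gave -0.51 and did not pass. Lpl is also in the list of marrow stroma markers, and Lepr of that list was higher too (86.3, 55.2, 29.98 and 39.1 CPM against 46.5, 16.6, 25.6 and 19.1 CPM; adjusted p = 0.103 without mutant 2), while at least 5 Lepr UMIs were found in 1, 1, 0 and 0 sinusoidal cells. The part of stromal RNA in these differences was not tested.

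In the scavenger and endocytosis list 7 of 19 tested members were higher (Ehd3, Mrc1, Stab1, Picalm, Cd36, Dab2 and Fcgrt) and the 3 that were lower were Cav1, Cav2 and Cavin1, which build caveolae. Cav1 was at 0, 6.57, 0 and 8.82 CPM in sinusoidal cells against 465, 96.7, 245 and 77.1 CPM, lower in every library (log2 difference -3.81 ± 0.28, edgeR adjusted p = 2.42e-11). Picalm (an adaptor of clathrin) gave 0.99, Dab2 (an adaptor for lipoprotein receptors) 0.87 and Fcgrt (the IgG and albumin recycling receptor) 0.77. In the lysosome list 4 of 19 were higher, all proteases: Lgmn (legumain, 1.63), Ctsl (cathepsin L, 1.81), Ctsb (cathepsin B, 1.01) and Ctsh (cathepsin H, 0.78). Ctsl was at 2848, 3048, 959 and 1252 CPM against 496, 795, 431 and 387 CPM. Dab2, Fcgrt, Ctsb, Ctsh, Cavin1 and Cav2 did not pass without control 2 (adjusted p = 0.156, 0.323, 0.0868, 0.999, 0.126 and 0.442), and Dab2, Fcgrt, Ctsb and Cav2 did not pass without mutant 2 either. Dab2 also missed without mutant 1 and Fcgrt without control 1 (adjusted p = 0.058 and 0.071).

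In the list of blood cell adhesion genes 5 of 15 tested members were higher and 6 lower. The 5 were Ackr1 (the atypical chemokine receptor of venules, 2.65, higher in 3 of 4 libraries and lower in mutant 1), Vcam1 (the ligand of the integrin VLA-4, 2.39), Selp (P-selectin, 1.96), Sele (E-selectin, 1.57) and Icam1 (the ligand of LFA-1, 0.82). Vcam1 was at 702, 456, 569.5 and 269 CPM against 46.5, 93.8, 10.96 and 85.3 CPM, and the sinusoidal cells were the higher in every library (edgeR adjusted p = 9.51e-08). Icam1 lost its call without control 2 or mutant 2 (adjusted p = 0.69 and 0.21). Lower were Cd34 (the sialomucin of capillaries and blood progenitors, -3.69), Podxl (podocalyxin, -2.03), Jam2 (-1.62) and Jam3 (-1.48), which encode junctional adhesion molecules, Mcam (CD146, -0.89) and Icam2 (-0.65). Mcam missed without control 2 (0.193) and Icam2 without control 2 or mutant 2 (0.215 and 0.313). Cd34 was at 11.5, 24.4, 89.9 and 81.1 CPM against 698, 546, 880.2 and 501 CPM and lower in every library (adjusted p = 1.47e-10). In the list of inflammatory activation genes, which shares Selp, Vcam1, Sele and Icam1, 9 of 12 tested members were higher and 0 lower, among them Socs3 (a brake on cytokine signalling, 0.91), Junb (1.05) and Cebpd (0.71). Socs3, Junb and Cebpd passed in neither fit that left out control 2 or mutant 2 (adjusted p = 0.155 to 0.911). Of the immediate early genes, 6 of 17 were higher, including Nr4a2 (1.37) and Fosb (0.98; adjusted p = 0.65 without control 2 and 0.161 without mutant 2).

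The capillary and tip-cell list moved the other way, with 8 of 13 tested members lower and 0 higher (median log2 difference -1.56). Ramp3 (a partner of the adrenomedullin receptor) was at 17.3, 12.7, 0 and 16.0 CPM against 217, 165, 296 and 146 CPM (-3.50 ± 0.22, edgeR adjusted p = 1.8e-12), lower in every library. The others were Ednrb (an endothelin receptor, -4.34), Col15a1 (a basement membrane collagen, -3.63), Kcne3 (a potassium channel subunit, -2.83), Nid2 (nidogen 2, -2.35), Igfbp3 (-2.003), Apln (apelin, -1.56) and Rgcc (-1.02; adjusted p = 0.232 without control 2). Arterial list members Efnb2 (ephrin B2, -2.73), Ly6c1 (-2.61), Podxl and Ly6a (Sca-1, -1.79) were lower as well, 4 of 9 tested. Part of this follows from the gate itself, since cells were assigned to the other compartment by the capillary genes Flt1 and Aplnr and by low Stab2, Clca3a1 and Adamts5.

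**Figure D3:**
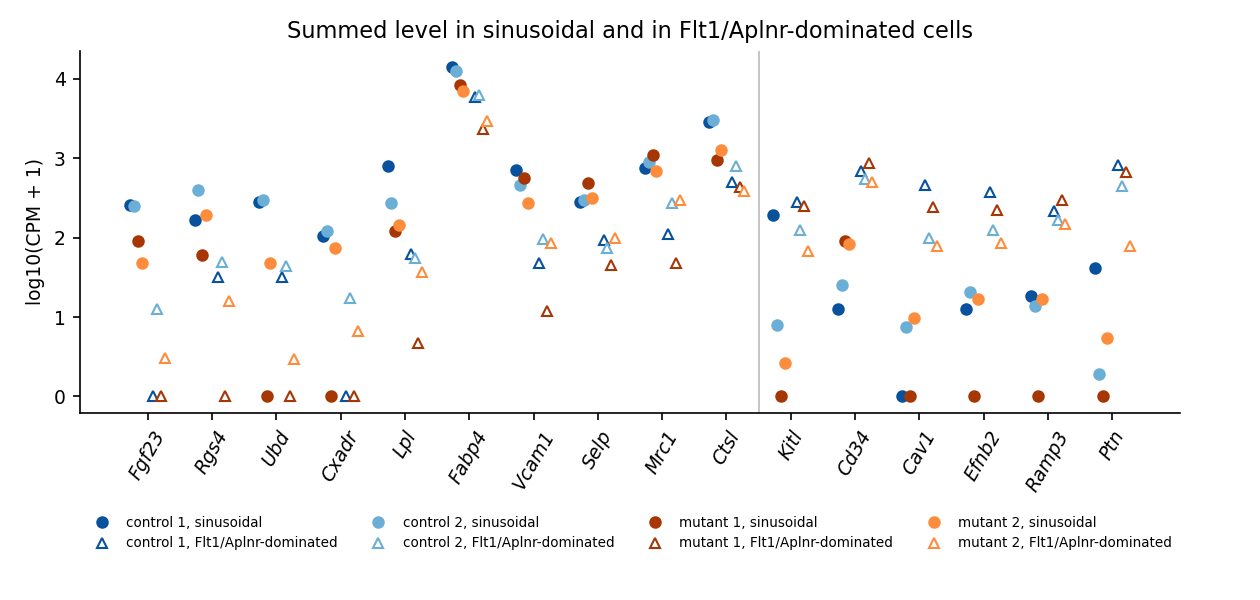
Each point is the summed level of a gene in 1 library on a log10(CPM + 1) scale, filled circles for sinusoidal and open triangles for Flt1/Aplnr-dominated cells. The 10 genes left of the line were higher and the 6 right of it lower in sinusoidal cells. Those 6 (Kitl, Cd34, Cav1, Efnb2, Ramp3 and Ptn) were lower in every library.

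Factors that support blood stem cells were not among the genes that rose. In the niche factor list 4 of 12 tested members were lower and 0 higher. Ptn (pleiotrophin, a heparin-binding growth factor) was at 40.3, 0.939, 0 and 4.41 CPM against 822, 448, 661 and 76.9 CPM (log2 difference -6.40 ± 0.44, edgeR adjusted p = 8.51e-12). Kitl was at 189.9, 7.04, 0 and 1.65 CPM against 279, 124, 248 and 67.1 CPM (-3.25 ± 0.37, adjusted p = 9.89e-08). Both were lower in every library, and the sinusoidal cells of control 1 held the highest level of each. Pdgfb (the pericyte-recruiting growth factor, -1.61; adjusted p = 0.20 without control 2) and Jag2 (a Notch ligand, -1.33) were the other 2. Cxcl12, the chemokine that retains stem cells, was at 759, 27.0, 0 and 6.62 CPM against 915, 51.8, 51.1 and 8.78 CPM (-0.51 ± 0.22, adjusted p = 0.239). It passed without cells scored as doublets (-1.60, adjusted p = 0.00027) and without cells holding transcripts of other cell types (-1.70, adjusted p = 2.8e-06). Of the 132 Cxcl12 UMIs in the sinusoidal cells of control 1, 128 were in 1 cell.

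Many matrix genes were lower. Of 22 tested basement membrane and matrix genes 9 were lower: Fbln2 (fibulin 2, -3.20), Col15a1, Lamb1 (laminin beta 1, -2.63), Sparcl1 (-2.63), Col18a1 (-2.49), Nid2, Lama4 (-1.73), Lamc1 (-1.06) and Lama5 (-0.85). The 2 that were higher were Fn1 (fibronectin, 1.86) and Adamts1 (1.06; adjusted p = 0.052 without control 2 and 0.16 without mutant 2). Also strongly lower outside the lists were Cdh13 (T-cadherin, -4.19), Rbp7 (a retinol-binding protein of capillaries, -4.23), Ltbp4 (-3.68), Vwa1 (-3.44) and Nes (nestin, -2.33). Among 16 coagulation genes 4 were higher and 6 lower. The 4 were Tfpi (tissue factor pathway inhibitor, 2.03), Thbd (thrombomodulin, 1.501), F8 (factor VIII, 1.28) and Mmrn1 (1.24), of which F8 and Mmrn1 missed without control 2 (adjusted p = 0.058 and 0.051). Among the 6 were Plat (tissue plasminogen activator, -3.75), F2rl3 (-3.03), Plaur (-0.92), Anxa2 (-0.71) and Entpd1 (-0.60). Plaur, Anxa2 and Entpd1 passed neither without control 2 (0.371, 0.375 and 0.825) nor without mutant 2 (0.352, 0.14 and 0.486), and Anxa2 missed without control 1 (0.063).

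Among endothelial transcription factors 4 of 28 tested were higher, among them Irf8 (1.68), Maf (0.95) and Lyl1 (0.80), and 2 lower, Meox1 (-3.09) and Bcl6b (-0.68). Maf did not pass without control 2 (edgeR adjusted p = 0.177). Lyl1 and Bcl6b passed neither without control 2 (0.603 and 0.476) nor without mutant 2 (0.0595 and 0.0791). The flow-responsive factors Klf2 (138, 414, 359.7 and 523 CPM against 155, 420.0, 467 and 447 CPM) and Klf4 (0.71 ± 0.26, adjusted p = 0.104) did not pass. Klf4 passed without control 1, without mutant 1 and in all 3 fits that removed doublets or cells with other-cell transcripts. Nos3 (endothelial nitric oxide synthase, -0.92) and Heg1 (-0.70), also of the flow list, were lower, but neither passed without control 2 (0.158 and 0.68) or mutant 2 (0.22 and 0.204). Insr (the insulin receptor, 1.65), Igfbp2 (1.36) and Igf1r (0.64) were higher and Igfbp3 and Igfbp7 (-1.22) lower. Igf1r was not called without control 2 or mutant 2 (0.697 and 0.169).

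Of 17 tested pan-endothelial genes 0 were higher and 2 lower, where 7.7% of all tested genes were called. The 2 were Calcrl (-0.77; edgeR adjusted p = 0.166 without control 2 and 0.103 without mutant 2) and Ecscr (-0.81; 0.347 without control 2). Tek (the angiopoietin receptor) was at 276, 285, 269.8 and 331 CPM against 279, 239, 292 and 345 CPM. No gene passed in the ribosomal, oxidative phosphorylation, proliferation, MHC class I and m6A lists (22, 19, 23, 14 and 17 tested). At a share of 7.7% few calls would fall in lists of this size. The pan-endothelial count and these counts of 0 are therefore not a result about these genes. Several genes named for other cell types were higher in sinusoidal cells: Kcnj8 and Abcc9, the paired subunits of a potassium channel of pericytes (1.46 and 1.49), Epor (the erythropoietin receptor, 1.08; adjusted p = 0.206 without control 2 and 0.116 without mutant 2) and Pf4 (a platelet chemokine, 0.87; not past the test without control 2, adjusted p = 0.50). The pericyte list otherwise had 3 to 8 of 10 members at 0 in the sinusoidal sums. Globins went the other way, for example Hba-a1 at 547, 986, 0 and 359.5 CPM against 2792, 1057, 7.30 and 1150.2 CPM.

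Between genotypes, few genes passed within the sinusoidal gate. Their levels in bone and erythroid cells are described below, without the share of all tested genes so placed. Mettl3 itself (ENSMUSG00000022160, chromosome 14, 52294841 to 52305128, minus strand) was at 23.01, 20.7, 0 and 9.93 CPM in the 4 libraries (log2 difference -1.10 ± 0.81, edgeR, not past the threshold), on 4, 88, 0 and 18 UMIs. These 3′ tags may lie outside the deleted part, so the level checks nothing. Across 8960 tested genes 46 were higher and 16 lower in mutants, 0.692% in all (0.513% higher, 0.179% lower), from edgeR with the processing pair as a term. Genotype fits that left out a library had no pair term, so they changed the model as well as the samples. DESeq2 on the same sums called 4 higher and 0 lower, with 92 genes at an unadjusted p under 0.05 against 270 in edgeR. The edgeR fit has 1 residual degree of freedom and an infinite prior estimate, so all genes of like abundance share 1 spread and the small p-values rest on that.

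The measured control and mutant levels did not overlap for any of the 16 lower genes, and the same held for 23 of the 46 higher genes, where 32.8% of all tested genes were so placed. Of the 16, 10 had no UMI in mutant 1, and no lower gene had more than 4 there. Of those 10, Cxcl12, Mt2, Gm4951, Abcb4 and Cox6b2 had a control library below the 89.9 CPM that 0 UMIs in mutant 1 allows. For these 5 the depth cannot show whether the groups overlap. Nor can it for Tfrc, Slc16a1 and Mt1, which had 4, 3 and 2 UMIs in mutant 1. Those UMIs stood for 119.9, 89.9 and 59.95 CPM, against 129.8, 121 and 86.2 CPM in control 2. Cxcl12, Mt2, Gm4951 and Abcb4 could pass the filter on low counts only through the controls, so their calls are no independent support.

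Fgf23 was among the lower genes. Beside the 253 and 251 CPM of the controls, Fgf23 stood at 89.9 and 46.9 CPM in mutants, a log2 difference of -2.28 ± 0.47 (SE, 2 libraries per genotype, edgeR adjusted p = 0.000288). It was lower in both pairs. With cells thinned to 1000 UMIs 15.8% and 15.8% of control sinusoidal cells and 20.0% and 3.73% of mutant ones held an Fgf23 UMI (63.2%, 43.3%, 40.0% and 13.7% unthinned), against at most 0.0728% of erythroid cells. The share in mutant 1 is 1 cell of 5 when thinned and 2 of 5 otherwise, which is above both controls when thinned and below both otherwise, and 5 cells settle neither. The call was lost without mutant 2 (adjusted p = 0.276), with thinning (0.0831) and in DESeq2, while the log2 difference kept its sign in every fit, between -1.88 and -2.50.

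Ubd was at 276 and 293 CPM in controls, 0 in mutant 1 and 46.3 CPM in mutant 2 (log2 difference -2.86 ± 0.48, edgeR adjusted p = 1.32e-06). Cells with a Ubd UMI made up 47.4% and 70.1% in controls, 0 of 5 cells in mutant 1 and 19.9% in mutant 2, and 26.3%, 21.5%, 0 and 3.11% after thinning. The call held without each library in turn and in every fit but DESeq2 (adjusted p = 0.836). Fabp5 (the epidermal-type fatty acid carrier) was at 633, 346, 0 and 85.5 CPM (-2.58 ± 0.48, adjusted p = 2.37e-05), and held without each library, though not after thinning (0.0831) or in DESeq2. Erythroid cells of the controls carried 270.0 and 232 CPM of Fabp5, below the sinusoidal level. Rarres2 (chemerin, a chemoattractant precursor) was at 189.9, 97.4, 0 and 14.3 CPM (-2.91 ± 0.53, adjusted p = 1.81e-05; 0.154 without mutant 2).

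Slc16a1 (the lactate transporter MCT1) was at 161, 121, 89.9 and 29.2 CPM (-1.86 ± 0.48, adjusted p = 0.0232), and Depp1 (a target of FOXO factors) at 184, 274, 29.98 and 91.0 CPM (-1.73 ± 0.46, adjusted p = 0.0275). In both the controls were the higher in each pair. Slc16a1 missed without control 1 (0.207) or mutant 2 (0.694), and Depp1 missed without any 1 library (0.0704 to 0.50). Gm4951, an interferon-inducible GTPase family gene, was at 34.5, 32.6, 0 and 1.65 CPM (-4.23 ± 1.04, adjusted p = 0.00969), and had no fit without control 2 or mutant 2.

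Several lower genes were also genes of red cells. Car1 and Car2 (carbonic anhydrases), Hba-a1 (alpha globin), Abcb4, Cox6b2 and Tfrc (the transferrin receptor) were all at a higher level in erythroid cells of both controls than in the sinusoidal cells. Mt1 and Mt2 (metallothioneins) and Slc16a1 were so in 1 control. How many of all tested genes were so placed was not determined, so these counts are a description only. The summed erythroid list was 4465 and 4945 CPM in control and 269.8 and 2316 CPM in mutant sinusoidal cells, with 0, 0, 9 and 0 of 14 members at 0. Its part in these differences was not tested. Without cells holding at least 5 UMIs of any other-cell gene 6 genes were lower, namely Fabp5, Slc16a1, Rarres2, Cxcl12, Fgf23 and Ubd, and all 6 are among the 16. Cxcl12 (759, 27.0, 0 and 6.62 CPM, -2.94 ± 0.53, adjusted p = 1e-05) was lost without control 1 (0.246), whose signal lies in 1 cell, without doublets (0.238) and without cells holding at least 2 other-cell genes (-2.27, adjusted p = 0.367).

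**Figure D4:**
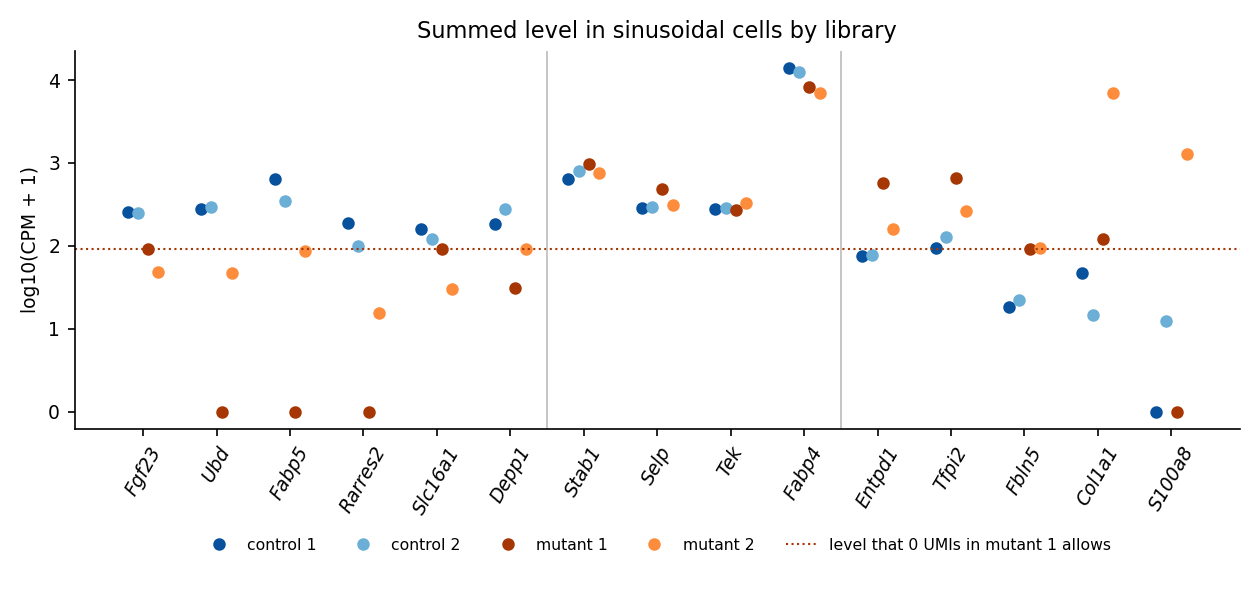
Points give the level of each gene in the sinusoidal cells of each library on a log10(CPM + 1) scale, and the dotted line is the level that 0 UMIs in mutant 1 still allows. The 6 genes on the left were lower and the 5 on the right higher in mutants; Stab1, Selp, Tek and Fabp4 in the middle did not pass.

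Many of the 46 higher genes were bone-cell transcripts, and mutant 2 carried them. Col1a1 (type I collagen) was at 46.0 and 13.9 CPM in controls, 119.9 CPM in mutant 1 and 7003 CPM in mutant 2 (log2 difference 6.49 ± 1.44, edgeR adjusted p = 0.00178; 0.516 without mutant 2). In mutant 2, 5 of 161 sinusoidal cells held 93.8% of its UMIs, and 34 cells had at least 5. S100a8 (calprotectin of neutrophils) was at 0, 11.3, 0 and 1294 CPM, with 85.3% of the mutant 2 UMIs in 5 cells. Free RNA, read from barcodes of 10 to 100 UMIs, held 14656 CPM of Col1a1 in mutant 2 against 5017 and 582 CPM in controls 1 and 2, and mutant 1 has no such barcodes in its list. In 41 of the 46 genes the bone cells of mutant 2 held a higher level than its sinusoidal cells. These include the neutrophil genes S100a8 and S100a9, so the comparison does not single out bone transcripts. The share of all tested genes so placed was not determined.

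The higher genes included the matrix and mineral genes Dmp1, Bglap (osteocalcin), Spp1 (osteopontin), Ibsp, Phex, Col1a2, Col11a1, Col5a2, Tnc, Lox, Mmp2, Mmp13 and Dcn. Others were Tent5a, Olfml3, Wif1, the osteoclast protease Ctsk and S100a9. Dmp1, Tnc and Wif1 had no UMI in either control, which puts the pooled mutant levels at least 329-fold, 195-fold and 32.0-fold higher, taking 3 counts over both controls as the floor. That floor rests almost wholly on the depth of control 2, since 0 UMIs in control 1 alone allow 17.3 CPM. Mutant 1 held 1 UMI of each of the 3 genes and mutant 2 held 410, 243 and 39, so the pooled levels rest on mutant 2. In mutant 2, 5 cells held 88.0% of the Dmp1 UMIs. Of the 13 members of the bone list 7 were tested, and all 7 were higher. Both of the 2 tested members of the neutrophil list, which has 15, were higher too, where 0.513% of all tested genes were. Dmp1, Tnc and Wif1, with no UMI in either control, could pass the filter on low counts only through the mutants. The same held for Olfml3 and Mmp2. The list counts and the calls of these genes are therefore no independent support. The summed bone list was 276, 61.0, 749 and 20963 CPM in sinusoidal cells, with 7, 3, 8 and 0 of 13 members at 0, and the summed neutrophil list was 0, 29.8, 0 and 3526 CPM, with 15, 4, 15 and 2 of 15 at 0. In the Flt1/Aplnr-dominated cells the bone list summed to 341, 97.7, 3236 and 8312 CPM. What these transcripts contribute was not tested, and 21 of the 46 genes had no UMI in mutant 1.

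**Figure D5:**
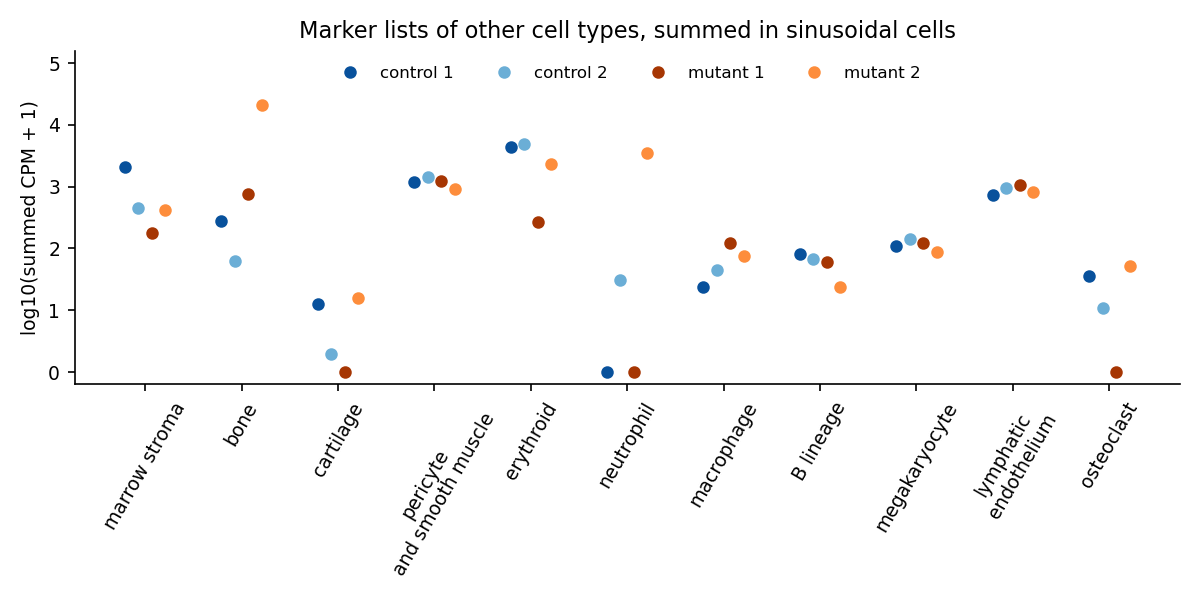
Points give the summed level of each marker list of another cell type in the sinusoidal cells of each library, on a log10(summed CPM + 1) scale. Mutant 2 stands highest for bone and neutrophil markers and both controls stand above both mutants for erythroid markers.

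The 5 higher genes below their sinusoidal level in bone cells were Entpd1, Tfpi2, Fbln2, Fbln5 and Tpm3-rs7. Entpd1 (CD39, which clears extracellular ATP) was at 74.8, 76.1, 569.5 and 159 CPM (log2 difference 1.56 ± 0.41, edgeR adjusted p = 0.0285). Tfpi2 (a protease inhibitor of the coagulation route) was at 92.1, 129, 659 and 264 CPM (1.54 ± 0.41, adjusted p = 0.0326). Fbln5 (an elastic fibre protein) was at 17.3, 21.4, 89.9 and 93.7 CPM (2.15 ± 0.56, adjusted p = 0.0248), and Fbln2 at 11.5, 7.51, 119.9 and 56.8 CPM (2.95 ± 0.69, adjusted p = 0.00466). In all 4 the measured levels of both mutants were above those of both controls. In that order mutant 1 held 19, 22, 3 and 4 UMIs of them and control 1 held 13, 16, 3 and 2. For Fbln5 and Fbln2 the depth does not settle whether the groups overlap. Fbln2 was at 326, 127, 544 and 350 CPM in the Flt1/Aplnr-dominated cells (control 1, control 2, mutant 1, mutant 2). Entpd1 kept its call only without mutant 2 among the fits that leave out a library (0.00185, otherwise 0.175 to 0.423), as did Tfpi2 (0.0123, otherwise 0.0992 to 0.535). Fbln2 missed without control 2 (0.484) or mutant 2 (0.272), and Fbln5 passed only without mutant 1 (0.000328).

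Of the sinusoidal identity list 0 of 20 tested members were called between genotypes, where 0.692% of all tested genes were (median log2 difference -0.17 against -0.06 over all genes), and 0 were called in the lists of scavenging, lysosome, blood cell adhesion, VEGF and angiopoietin receptors, flow response and inflammatory activation (19, 21, 15, 10, 17 and 13 tested). At that share few or no calls would fall in lists of this size, so the counts of 0 are not a result about these genes. Other endothelial lists held a few calls. Lower were Cxcl12, in the niche factor and arterial lists (11 and 8 tested), and Fabp5 among 15 fatty acid genes. Higher were Entpd1 and Tfpi2 among 13 coagulation genes, Fbln2 and Fbln5 among 22 matrix genes, and Fbln5 again in the arterial list. All 22 ribosomal protein genes had a negative difference (median -0.72), with none called. Stab1 was at 639, 795, 959 and 749 CPM (0.03 ± 0.56), so the groups overlapped. Ackr1, of the sinusoidal identity list, was at 397, 337, 29.98 and 174 CPM, with 1 UMI in mutant 1. It was called lower in mutants without doublets, though not in the main fit. Fabp4 was at 14004, 12545, 8363 and 7064 CPM (-0.997 ± 1.49), where both mutants were below both controls without passing. Vcam1 was at 702, 456, 569.5 and 269 CPM (-0.74 ± 0.48) and Plvap at 748, 853, 1619 and 1157 CPM (0.56 ± 0.62). A p that misses the threshold does not show that levels were the same, least of all with 5 cells in mutant 1.

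Among adhesion molecules Sele came closest, at 121, 134, 89.9 and 44.7 CPM (-1.40 ± 0.47, edgeR adjusted p = 0.271), and it passed without doublets (0.0285) and without mutant 1 (0.0222). Selp was at 282, 293, 479.6 and 314 CPM (0.20 ± 0.43) and Icam1 at 127, 193, 89.9 and 202 CPM (-0.11 ± 0.44). Lpl was at 806, 275, 119.9 and 145 CPM (-1.58 ± 0.46, adjusted p = 0.0824), the controls above the mutants, and passed without control 2 (0.00187), without mutant 1 (0.00875) or with no pair term (0.00224). Cd36 (0.08 ± 0.44), Pparg (-0.22 ± 0.42) and Rgs4 (-1.16 ± 0.46, 167, 393, 59.95 and 189.7 CPM) did not pass. Receptors Flt4 (0.20 ± 0.51), Il6st (-0.48 ± 0.58) and Tek (0.01 ± 0.43) and the factors Klf2 (0.57 ± 0.46), Klf4 (0.10 ± 0.49) and Vwf (-0.18 ± 0.58) did not pass either, and the signs of Flt4, Tek, Klf2, Klf4, Vwf, Cd36, Pparg, Stab1, Selp and Icam1 turned in at least 1 other fit. Kitl was too low to be fitted, at 33, 30, 0 and 3 UMIs.

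Whether a genotype difference was particular to sinusoidal cells was tested by the interaction with compartment, in which 3 of 7676 genes passed, all higher (0.0391% of genes), and 0 lower. At an unadjusted p under 0.05 there were 102 genes in edgeR, and DESeq2 called none, with 36 at an unadjusted p under 0.05. The lower level of Fgf23 in mutants was not found to differ between compartments (interaction 0.05 ± 0.48, whose sign turned in several other fits), and the Flt1/Aplnr-dominated cells had no Fgf23 UMI in control 1 and mutant 1. Ubd (1.70 ± 0.72), Fabp5 (-1.17 ± 0.54) and Cd34 (1.88 ± 0.60, adjusted p = 0.764) did not pass. Among the 17 fitted genes that are described whatever their result, the interaction ran from -2.90 for Kitl to 1.40 for Cd36, with the lowest adjusted p at 0.519.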

How the data were processed

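Cells were captured with the 10x Genomics 3′ kit (v3.1) in 4 libraries. The deposited UMI counts per gene and barcode were made by the authors against mm10 with Cell Ranger 5.0.1 (control 1, mutant 1) and 6.1.2 (control 2, mutant 2), per the submitters' processing notes, while the file headers name version 4 for control 1, control 2 and mutant 2. The gene annotation they used is not stated. For mutant 1, only called barcodes are listed (lowest 501 UMIs).

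Counts were summed per library and compartment and tested with edgeR 4.0.16 (quasi-likelihood F test, TMM scaling, its own filter on low counts; R 4.3.3), with Benjamini-Hochberg adjustment over all tested genes and a threshold of 0.05. The genotype fit had the pair as a term and the compartment fit the library. The SE after each ± is the size of the log2 difference divided by the square root of the test's F. It is not that gene's own spread between libraries. Genotype fits that left out a library had no pair term. The fits were tested on simulated counts. Shares were compared by an exact permutation test. Alternatives were DESeq2 1.42.0, other cell filters, removal of doublets scored by Scrublet (scanpy 1.11.5) or of cells with at least 5 UMIs of each of 2 (or of any 1) other-cell genes, a gate margin of 2 UMIs, thinning to 1000 UMIs, other scalings and leaving out each library. Doublets were kept otherwise. Genes named are the 15 with the smallest p each way, 22 genes named whatever their result, and members of gene lists. Intervals and limits cover counting error only. The members and lists were chosen with earlier results of these data known. Some genes are not reported here.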

Additional observations from a re-analysis of the deposited data

Results flagged for a closer look

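In 3 genes the genotype difference in sinusoidal cells was not that in Flt1/Aplnr-dominated cells by the interaction term in edgeR. Col13a1 (a transmembrane collagen) had an interaction of 5.84 ± 1.04 on the log2 scale (adjusted p = 0.000154). It was at 0, 0.47, 0 and 31.4 CPM in sinusoidal cells (control 1, control 2, mutant 1, mutant 2) against 77.6, 33.2, 47.5 and 33.9 CPM. The 0 of mutant 1 allows up to 89.9 CPM, so its sinusoidal level cannot be placed against its other compartment. Cthrc1 (a secreted collagen triple helix repeat protein) gave 4.76 (adjusted p = 0.0107) and Mmp13 (collagenase 3, made by bone and cartilage cells) gave 3.29 (adjusted p = 0.0107). Cthrc1 was at 0, 0.704, 0 and 153 CPM against 62.1, 8.79, 62.1 and 65.6 CPM, so its sinusoidal level rests on mutant 2. Mmp13 was at 63.3, 0.235, 29.98 and 229 CPM against 0, 29.3, 391 and 69.4 CPM. Its sinusoidal level was thus the lower in mutant 1 and the higher in mutant 2. DESeq2 called none of the 3, and no gene passed without cells holding any other-cell gene. Without control 2 the sign of Mmp13 turned (-9.44).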

How the results depend on the processing

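Counts of passing genes moved most. Genes higher in mutant sinusoidal cells, 46 in the main analysis, numbered 4 with DESeq2, 116 with no filter on low counts, 3 after thinning, 24 and 13 without cells holding 2 or any other-cell genes, and 9 to 183 when a library was left out. Genes lower, 16, numbered 0 with DESeq2, 10 with the stricter cell filter (2000 UMIs, 5% mitochondrial), 2 after thinning, 8 and 6 without other-cell genes, 39 with no pair term and 16 to 48 with a library left out. Against the Flt1/Aplnr-dominated cells, 340 higher and 251 lower became 177 and 155 with DESeq2, 87 and 43 after thinning, and 62 to 452 and 55 to 340 with a library left out. The 3 interaction calls became 0 with DESeq2, after thinning or without any other-cell gene, 1 with the stricter filter, 8 without doublets and 0 to 8 with a library left out, with 0 to 1 lower. The share difference was -43.6 points after thinning. Thinning leaves fewer genes to test; other causes were not tested. Genotype differences that changed sign had not passed. Stab1 was -0.052 with the stricter filter, -0.16 without doublets, -0.13 thinned and -0.040 without 2 other-cell genes; Tek was -0.080, -0.12, -0.098 and -0.13 there, -0.083 with DESeq2 and -0.0011 unfiltered. Flt4 was -0.0062 without doublets and -0.12 thinned. Klf4 was -0.15 with DESeq2, -0.050 without doublets and -0.023 without 2 other-cell genes. Cd36 was -0.14, -0.61, -0.13 and -0.14 without doublets, thinned and without 2 or any other-cell genes. Selp was -0.33 thinned and Icam1 0.039 with no pair term. With a library left out, Stab1 ran from -0.083 to 0.12, Flt4 from -0.071 to 0.50, Klf2 from -0.14 to 1.53, Klf4 from -2.23 to 1.32, Cd36 from -0.23 to 0.52, Icam1 from -1.33 to 0.31, Vwf from -1.60 to 0.44, Tek from -0.51 to 0.28, Pparg from -0.34 to 0.073. Between compartments, Klf2 was 0.21 thinned, 0.039 and 0.24 without 2 or any other-cell genes and -0.15 to 0.099 with a library left out, and Tek -0.047 to 0.10. Cxcl12 was 0.25 with the stricter filter and 0.026 with a gate margin of 2 UMIs, and Hba-a1 0.032 without any other-cell gene. The Fgf23 interaction was -0.13 with the stricter filter, -0.34 without doublets, -0.21 with the gate margin, -1.16 without any other-cell gene and -7.40 to 4.70 with a library left out, and that of Mmp13 -9.44 to 7.15. With 5 sinusoidal cells in mutant 1, depth limits every genotype statement to large differences.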
